A study of Homo sapiens with 12 samples.

Results

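Nonsense-mediated mRNA decay (NMD) was followed here in reporter variants whose stop codon had moved upstream. These variants carry a stop codon at bases 1-3 of a 10-base window (the place of the penultimate codon), a sense codon at bases 4-6, the tryptophan codon TGG at bases 7-9 and any base at base 10. In the designed layout bases 1-6 are random, bases 7-9 hold a stop codon or TGG, and TGG marks the control without NMD. In the penultimate-stop variants, therefore, the codon before the stop is fixed reporter sequence, the same in every one of them, and bases 4-10 all follow the stop. They were found by their sequence alone, with no measured value used: 311 of 41955 listed variants in the EJC-independent reporter library and 458 of 51306 in the EJC-enhanced library, out of 732 such sequences possible. The libraries are named after the exon junction complex (EJC), and each was carried by HEK293T cells, an established human embryonic kidney line of otherwise wild-type genotype, integrated by Cre-Lox recombination into 1 fixed site of the genome. For each library, cells were given the SMG1 inhibitor SMG1i at 0.5 µM for 24 hours or the vehicle DMSO for 24 hours, with 3 RNA libraries per group and 12 in all. The labels do not say whether replicates came from separate cultures, so errors between them may be technical. The deposited tables compare the treatments variant by variant without values for single libraries, and the depth per library is unknown.

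NMD degrades mRNAs on which translation ends too early. At a stop codon the release factors eRF1 and eRF3 cut the finished peptide from the tRNA in the ribosomal P site, and slow or delayed termination lets the helicase UPF1 mark the mRNA. SMG1 is the kinase that phosphorylates UPF1, so its inhibition lets NMD substrates accumulate. The exon junction complex is a set of proteins left on mRNA at splice sites, and one lying downstream of a stop codon strongly favours NMD. The base after the stop codon is known to affect how well a stop codon is read, and C there is known as a weak context, above all after TGA.

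The layout is shown by the most abundant variant of each kind in the EJC-independent table, with stop codons in capitals and TGG in lower case when it is a sense codon. The sequences are the sense strand of the reporter, 5′ to 3′, as deposited.
Stop at the penultimate codon: TAAccctggt
Stop at the last codon, then TGG: ctcTGAtggc
Stop at the designed place: ccccccTGAc
Stops at the penultimate codon and the designed place: TAGtccTAGc
Control without a stop: cccccctggc
The penultimate-stop variant TAAccctggt had a response of 2.12 ± 0.07 (deposited standard error) at a mean normalized count of 5394 in the authors' deposited table. Response means the log2 ratio of RNA under SMG1i to RNA under DMSO. The deposited tables do not say which treatment is the numerator. The deposited sign was turned, on the reading that positive stands for more RNA under SMG1i. With the other numerator every response would change sign.

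Penultimate-stop variants as a group lay well above the TGG controls in both reporters. Their mean response was 2.12 ± 0.78 in the EJC-independent reporter (SD, 310 variants) and 2.15 ± 0.93 in the EJC-enhanced reporter (SD, 454 variants), which are 4.35-fold and 4.43-fold more RNA under SMG1i. The medians were 2.14 and 2.14, against 1.53 and 2.02 over all variants of the 2 tables, which include the TGG controls. Stops at the designed place had medians of 1.69 and 2.27, so penultimate stops lay above them in the EJC-independent reporter and below them in the EJC-enhanced one. The TGG controls averaged -0.02 and 0.03. Such levels are relative to the normalization of each table, which may itself set the controls near 0, and this was not tested. A variant entered these means with a mean normalized count of at least 10, which left out 1 and 4 penultimate-stop variants. Against controls with the same bases 4-10, the response was higher by 2.14 (95% interval 2.05 to 2.23, 310 variants against 7782) in the EJC-independent reporter and by 2.12 (2.03 to 2.20, 454 against 11150) in the EJC-enhanced reporter. These differences were 47.9 and 47.8 times their standard errors. Errors and tests of means run over variants, which are sequences measured in the same libraries and not replicate cultures.

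For the EJC-independent reporter, 250 of 311 penultimate-stop variants were higher under SMG1i at an adjusted p under 0.05 in the authors' deposited table (80.4%) and 0 were lower, beside 64.5% higher and 0.997% lower over the whole table. For the EJC-enhanced reporter, 327 of 455 with an adjusted p were higher in the authors' deposited table (71.9%) and 0 lower, beside 63.7% and 0.356%. Most variants of both tables have a stop codon. Among other stop variants the call was made in 84.5% and 85.9% of those with the stop at the designed place, 85.8% and 73.6% of those with stops at the penultimate codon and the designed place, and 75.5% and 72.7% of those with the stop at the last codon (EJC-independent, then EJC-enhanced). Among TGG controls the share called higher was 4.06% and 2.75%. The count of reads went with the call. With a mean count under 50, 40 of 86 penultimate-stop variants were called for the EJC-independent reporter and 81 of 172 for the EJC-enhanced one. With 200 or more, 106 of 106 and 63 of 67 were called. Over all variants the shares called higher were 29.5% and 44.4% under 50, and 74.0% and 63.2% with 200 or more (EJC-independent, then EJC-enhanced). Stops at the designed place had 35.6% and 53.3% under 50, and 99.6% and 97.5% with 200 or more. The rise with counts was thus shared by those stop variants. The mean response was higher in the classes with more reads, without a test of the difference. For counts under 50, from 50 to 200 and above it was 2.02 ± 0.13, 2.11 ± 0.06 and 2.22 ± 0.03 in the EJC-independent reporter, and 1.98 ± 0.08, 2.23 ± 0.06 and 2.30 ± 0.08 in the EJC-enhanced reporter (standard error over variants). The mean count is taken over libraries of both treatments, so more RNA under SMG1i itself moves a variant toward a higher class. Stops at the designed place had means of 1.69, 1.76 and 1.71 in the EJC-independent and 2.14, 2.33 and 2.32 in the EJC-enhanced reporter.

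Penultimate-stop variants were sparsely listed for both reporters. The shares and counts are of RNA, with no counts of library DNA beside them. The tables list 42.5% and 62.6% of those possible, against 69.6% and 88.2% of the TGG controls and 65.1% and 77.5% of the variants with a stop at the designed place. Variants with a stop at the last codon, at 43.6% and 62.0%, and those with both stops, at 40.8% and 60.1%, were listed in like shares. TGG controls whose first codon begins with T ran by that codon from 60.7% (TGG) to 95.5% (TCC) in the EJC-independent reporter. In the EJC-enhanced reporter they ran from 78.3% (TGG) to 100% (TCC). The median of the mean counts of penultimate-stop variants was 105.0 for the EJC-independent and 65.1 for the EJC-enhanced reporter, against 320.0 and 273.5 for the controls, 243.2 and 142.8 for stops at the designed place and 109.2 and 61.6 for stops at the last codon. All penultimate-stop variants together held 0.274% and 0.251% of the summed mean counts. By the base after the stop, 67.2% of those with C were listed in the EJC-independent table, 48.7% of those with T, 28.1% of those with G and 27.1% of those with A. The TGG controls had the same order by base 4, with 83.7% for C, 78.6% for T, 59.1% for G and 58.6% for A. For the EJC-enhanced table the shares were 82.3% for C, 75% for T, 50.5% for A and 44.8% for G, while the TGG controls there had 96.0% for C, 93.5% for T, 81.3% for A and 83.1% for G, with A and G in the other order.

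The place of the stop codon went with a clear difference in the EJC-independent reporter. Penultimate-stop variants averaged 2.12 ± 0.78 there (SD, 310 variants), against 1.72 ± 0.62 for stop codons at the designed place, 6 bases downstream and after a random last codon (SD, 28964 variants). Within the 12 combinations of stop codon and following base, penultimate-stop variants were higher by 0.41 (95% interval 0.32 to 0.51), or 1.33-fold (adjusted p 2.02e-17, normal test over variants, Benjamini-Hochberg over the 4 comparisons of a reporter). All penultimate-stop variants share the same place and the same fixed preceding codon. Such intervals and p-values thus cover the spread between sequences and do not measure the uncertainty of a place effect. The 76 penultimate-stop variants with T after the stop averaged 2.18 ± 0.94, against 1.76 ± 0.72 for stop codons at the last codon, which lie 3 bases downstream and are followed by the T of TGG (SD, 317 variants). With the stop codon in the model they were higher by 0.42 (0.18 to 0.65, adjusted p 0.000631, linear model across variants). The nearest kind of variant was that with a further stop codon at bases 7-9. The 270 penultimate-stop variants for which such variants with the same bases 1-6 and 10 were listed, 562 in all, differed from the mean of their matches by -0.04 (-0.15 to 0.08, adjusted p 0.516). Variants with both stops averaged 2.17 ± 0.78 (SD, 894 variants).

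The same step in place was small and in the other direction in the EJC-enhanced reporter. Penultimate-stop variants lay below stop codons at the designed place by 0.14, a difference of -0.14 (95% interval -0.23 to -0.04, adjusted p 0.0074, normal test over variants), where the designed place averaged 2.29 ± 0.76 (SD, 34522 variants). This call ended with a mean count of 50 or more, at -0.09 (adjusted p 0.128). Relative to stop codons at the last codon, which averaged 2.23 ± 0.89 (SD, 449 variants), the difference was -0.17 (-0.33 to -0.002). It did not pass after adjustment (unadjusted p 0.0478, adjusted p 0.0637, linear model across variants). The difference passed with inverse variance weights, at -0.18 (adjusted p 0.0109). With any base after the stop in place of T alone it was -0.08 (-0.20 to 0.04, unadjusted p 0.173). Relative to variants with a further stop at bases 7-9 it was -0.08 (-0.18 to 0.03, 424 variants against 1008, adjusted p 0.157).

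The step in place therefore differed between the reporters, EJC-independent minus EJC-enhanced, by 0.55 (95% interval 0.42 to 0.68, adjusted p 1.11e-15) against the designed place and by 0.58 (0.30 to 0.87, adjusted p 0.000129) against the last codon. The level over the TGG controls with the same bases did not pass the test of a difference between reporters, at 0.02 (-0.10 to 0.15, adjusted p 0.726). The 2 tables were normalized apart, so the tests between reporters compare only differences within a table. In the EJC-independent reporter the penultimate-stop mean of 2.12 was exceeded by 2 of the 61 means by last codon at the designed place, which ran from 1.39 after TAT, a tyrosine codon, to 2.17 after GGC, a glycine codon. The EJC-enhanced mean of 2.15 was exceeded by 60 of 61, which ran from 2.10 after AGG to 2.38 after GAC. The fixed codon that precedes the penultimate-stop codons is not named by the labels or files, so the place and the preceding codon cannot be told apart.

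The 3 stop codons gave like means at the penultimate codon. In the EJC-independent reporter the opal codon TGA averaged 2.12 ± 0.69 (SD, 106 variants), the ochre codon TAA 2.11 ± 0.74 (96 variants) and the amber codon TAG 2.13 ± 0.90 (108 variants). The EJC-enhanced means were 2.14 ± 0.97 (149 variants), 2.13 ± 0.90 (144 variants) and 2.17 ± 0.93 (161 variants). The 3 pairwise differences were between -0.01 and 0.00 in the EJC-independent reporter, where their intervals together spanned -0.25 to 0.22, and no pair passed (adjusted p 0.974 for each, linear model with base 4). The EJC-enhanced reporter gave differences from -0.03 to 0.02, with intervals within -0.24 to 0.23 (adjusted p 0.891 for each).

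In the EJC-independent reporter TGA minus TAG was -0.01 at the penultimate codon, against 0.21 at the designed place, and TGA minus TAA was 0.00 at the penultimate codon, against 0.15 at the designed place. The change in TGA minus TAG was -0.22 (95% interval -0.44 to 0.01) and did not pass (adjusted p 0.18 over 3 pairs). It passed with a mean count of 200 or more, at -0.22 (adjusted p 0.0203), and with inverse variance weights, at -0.16 (adjusted p 0.0186). This comparison was added after the values were seen. The changes for TGA against TAA, at -0.15 (-0.35 to 0.05), and for TAA against TAG, at -0.07 (-0.30 to 0.17), did not pass in any setting run. The 3 EJC-enhanced changes lay between -0.08 and 0.02 (adjusted p 0.845 for each).

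The base directly after the stop, base 4, went with no difference that passed. In the EJC-independent reporter, variants with T averaged 2.18 ± 0.94 (SD, 76 variants), with G 2.17 ± 0.60 (53 variants), with A 2.16 ± 0.77 (52 variants) and with C 2.06 ± 0.75 (129 variants). C had the lowest mean there, at -0.08 relative to the other bases (95% interval -0.26 to 0.09, adjusted p 0.907). Among EJC-enhanced variants, G averaged 2.28 ± 1.07 (85 variants), C 2.16 ± 0.94 (157 variants), A 2.11 ± 0.96 (96 variants) and T 2.06 ± 0.78 (116 variants). G stood at 0.17 relative to the other bases (-0.08 to 0.42, adjusted p 0.594) and C at 0.01 (-0.16 to 0.19, adjusted p 0.872). The linear model across variants thus called 0 of 16 base effects in each reporter (bases 4, 5, 6 and 10, Benjamini-Hochberg over 16). At an unadjusted p under 0.05 there were 0 in the EJC-independent reporter and 1 in the EJC-enhanced reporter, G at base 10, at -0.21 (p 0.0254, adjusted p 0.407).

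The 12 combinations of stop codon and following base had 13 to 44 variants each in the EJC-independent reporter and 24 to 53 in the EJC-enhanced reporter. In the EJC-independent reporter they ran from 1.88 ± 0.63 for TAAG (SD, 13 variants) to 2.42 ± 0.62 for TGAG (17 variants). Between them, in rising order, lay TAGC (1.99), TGAC (2.02), TAAA (2.07), TGAT (2.09), TAGG (2.14), TGAA (2.15), TAAT (2.16), TAAC (2.18), TAGA (2.24) and TAGT (2.32). EJC-enhanced means ran from 1.98 ± 0.71 for TAAA (30 variants) to 2.42 ± 1.28 for TAAG (27 variants). TAAG was thus lowest in one reporter and highest in the other. The others there were TGAT (2.00), TAGT (2.02), TAAC (2.04), TGAA (2.05), TAAT (2.18), TAGC (2.18), TAGG (2.20), TGAG (2.23), TGAC (2.27) and TAGA (2.27). The effect of base 4 did not pass a test of dependence on the stop codon in either reporter (chi-square 7.33, p 0.292, and 4.44, p 0.618, each on 6 degrees of freedom). Nor did any stop pair or base 4 effect differ between the reporters over the 251 sequences used in both (adjusted p 0.924 or higher over 7 tests).

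Grouped by the codon at bases 4-6, which follows the stop and is not read as sense unless the stop is passed, 39 of the 58 codons present in the EJC-independent reporter had 4 or more variants. The highest means were those of TCG (3.20, 4 variants), CGT (3.14, 5 variants) and TTG (2.72, 5 variants), and the lowest those of ACG (1.55, 4 variants), CTA (1.58, 5 variants) and CGA (1.67, 5 variants). Within these codons the SD ranged from 0.83 for CGA to 2.14 for TCG. TCG variants ran from 1.55 to 6.31 with a median of 2.46, and ACG variants from -0.53 to 2.92 with a median of 1.90. In the EJC-enhanced reporter 50 of 60 codons had 4 or more, with GTG (3.39, 5 variants), CAT (2.91, 9 variants) and GGC (2.81, 5 variants) highest and GGT (0.96, 4 variants), AGT (1.41, 7 variants) and CAA (1.45, 8 variants) lowest. No codon was among these highest or lowest in both reporters. By the amino acid such a codon names, among the 15 amino acids with 4 or more variants, the means ran from 1.72 for cysteine, 1.90 for glutamine and 1.94 for valine up to 2.34 for isoleucine, 2.39 for aspartate and 2.40 for tyrosine in the EJC-independent reporter. EJC-enhanced means of the 18 amino acids with 4 or more variants ran from 1.82 for isoleucine, asparagine and glutamine up to 2.45 for tryptophan, 2.46 for lysine and 2.49 for valine. Of these, glutamine was among the 3 lowest in both reporters, while valine and isoleucine stood at opposite ends. With so few variants per codon these values are descriptions without a test.

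CTA after the stop is a context known to favour readthrough of TGA in human genes. The EJC-independent table lists 5 such variants. TGActatggc had a response of 1.39 ± 0.73 (deposited standard error) at a mean count of 44.3 in the authors' deposited table, below the mean of its kind by about its own error. The 3 TAG variants ranged from 0.19 to 2.60, and TAActatggt had 2.25 ± 0.79 in the authors' deposited table. In the EJC-enhanced reporter the 3 TGA variants with CTA ranged from 2.69 to 3.87 (mean 3.14), the 4 TAG variants from 1.24 to 3.28 (mean 2.29) and the 4 TAA variants from 0.77 to 2.64 (mean 1.52). The single TGA variant with CTA thus lay below the mean of its kind in the EJC-independent reporter. The 3 in the EJC-enhanced reporter lay above the mean of theirs, with errors of 0.48 to 1.10 in the authors' deposited table. This contrast rests on few variants with large errors and was not tested.

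Much of the spread between penultimate-stop variants was of the size of the error of a single measurement. In the EJC-independent reporter the SD of 0.78 stands beside a root mean square standard error of 0.66, which is 71.9% of the variance, and in the EJC-enhanced reporter 0.93 stands beside 0.81, or 75.4%. Cochran's Q, the sum of squared deviations in units of the deposited error, was 1.48 and 1.30 per degree of freedom, where 1 would be error alone. Stop codons at the designed place, whose last codon varies, had 2.64 and 1.25, and TGG controls 1.91 and 1.05. Among EJC-independent variants with counts of at least 200, the SD was 0.33 for penultimate stops (106 variants) and 0.36 for stops at the designed place (15874 variants). What remained after subtracting the error variance was an SD of 0.20 and 0.28. With counts of at least 10 the order was the other way, at 0.41 for penultimate stops and 0.32 for the designed place. So it was in the EJC-enhanced reporter, at 0.46 and 0.36 with counts of at least 10 and 0.28 and 0.22 with at least 200. Q per degree of freedom also rises where errors are smaller, and the kinds differ in mean count. These figures are descriptions, with no test of the difference.

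The sequences with the highest and lowest response among variants whose mean count reached 100 are shown because they give the limits of the range, the stop codon in capitals.
EJC-independent, rank 1 from the top: TAAcgttggt
EJC-independent, rank 2 from the top: TAAttgtggg
EJC-independent, rank 3 from the top: TGAgcttggg
EJC-independent, rank 4 from the top: TAGttctggc
EJC-independent, rank 5 from the top: TGAccgtggc
EJC-independent, rank 5 from the bottom: TAAcggtggt
EJC-independent, rank 4 from the bottom: TAGctctggc
EJC-independent, rank 3 from the bottom: TAGctatggt
EJC-independent, rank 2 from the bottom: TGAtcctggg
EJC-independent, rank 1 from the bottom: TAAttctggt
EJC-enhanced, rank 1 from the top: TAGacttggt
EJC-enhanced, rank 2 from the top: TGAgcttggt
EJC-enhanced, rank 3 from the top: TAGacctggg
EJC-enhanced, rank 4 from the top: TAGacatggt
EJC-enhanced, rank 5 from the top: TGAtcttgga
EJC-enhanced, rank 5 from the bottom: TAGtcttgga
EJC-enhanced, rank 4 from the bottom: TGAccttggg
EJC-enhanced, rank 3 from the bottom: TAActttgga
EJC-enhanced, rank 2 from the bottom: TAAcgctggt
EJC-enhanced, rank 1 from the bottom: TAAgcctggg
For the EJC-independent reporter the 5 highest ranged from 2.94 for TGAccgtggc to 3.28 ± 0.39 for TAAcgttggt in the authors' deposited table (adjusted p 2.12e-16). The 5 lowest ranged from 0.97 ± 0.41 for TAAttctggt (adjusted p 0.0274) to 1.58 for TAAcggtggt in the authors' deposited table, and all 5 were still called higher under SMG1i. All 3 stop codons occur at both ends. TAGttctggc and TAAttctggt share bases 4-9, differ in the stop codon and base 10 and lie at opposite ends, at 2.96 ± 0.34 and 0.97 ± 0.41 in the authors' deposited table.

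The range was wider in the EJC-enhanced reporter, where errors are larger. Its 5 highest ranged from 3.73 ± 0.74 for TGAtcttgga to 5.03 ± 0.68 for TAGacttggt (adjusted p 2.7e-12) in the authors' deposited table. Its 5 lowest ranged from -0.05 ± 0.79 for TAAgcctggg to 0.68 ± 0.78 for TAGtcttgga in the authors' deposited table, and none of these 5 was called (adjusted p 0.477 or higher). In all, 61 EJC-independent and 128 EJC-enhanced penultimate-stop variants were not called. The most abundant of them were TAAcattggg at a count of 92.4, with 1.18 ± 0.61 (adjusted p 0.0747), and TAAcactggt at 263.5, with 1.40 ± 0.76 (adjusted p 0.1), in the authors' deposited table of each reporter. For 3 variants of the EJC-enhanced reporter the authors' deposited table gives no adjusted p, among them TGActgtgga with the highest response of all, 7.13 ± 1.95. In that reporter 207 variants lack a p-value and the same number lack an adjusted p, so this response has no test. It was kept in the means.

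The responses of the same sequences in the 2 reporters showed little relation. Of the 732 possible, 251 were listed in both tables and 518 in at least 1. Over these 251, Pearson's r between the responses was 0.08 and Spearman's rho 0.09, and over the 90 with a mean count of 100 or more in both, r was -0.05 and rho -0.06. The mean counts of the same sequences had an r of 0.58 on a log scale. Points share libraries within a table, and much of the spread within each table was of the size of the error. These values are descriptions. In the authors' deposited tables, 167 of the 251 were called in both reporters, 41 in the EJC-independent reporter alone, 29 in the EJC-enhanced reporter alone and 14 in neither. Among the 251, 3 have no adjusted p in the EJC-enhanced reporter and were counted as not called there. The same split was not made over all variants, so it is not a result particular to these sequences.

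The widest gaps at a count of 100 or more in both tables rested on the EJC-enhanced values. They are the extremes of 90 sequences, between tables normalized apart, and errors are larger in the EJC-enhanced reporter. TAAcgctggt had 2.34 ± 0.21 in the EJC-independent and 0.18 ± 1.03 in the EJC-enhanced reporter in the authors' deposited tables. TAGacttggt had 2.17 ± 0.42 in the EJC-independent and 5.03 ± 0.68 in the EJC-enhanced reporter in the authors' deposited tables. Both lay close to the mean of their kind in the EJC-independent reporter.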

How the data were processed

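RNA of reporter variants was compared between SMG1i and DMSO libraries of HEK293T cells. The authors deposited 1 table per reporter, and the submitters' processing notes name DESeq and DESeq2. How reads were assigned to variants is not stated in those sources. Per the file headers, each variant has a normalized count averaged over libraries (a signal), its log2 fold change and that value's error, the Wald statistic as a score, and p-values before and after adjustment. The deposited adjusted p-values equal a Benjamini-Hochberg adjustment over each whole table.

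Variants were classed by their 10 bases, and those with a mean count of 10 or more entered the means, 41740 and 51167 in all. Sign-turned log2 fold changes were compared by matched differences of means and by linear models with HC3 errors (Python 3.11.15, statsmodels 0.14.6, SciPy 1.17.1), tested on simulated data. All tests are two-sided, and each stop codon, base or interaction cell tested among the penultimate-stop variants had at least 10 variants. The median deposited error of a penultimate-stop variant was 0.52 and 0.73, so means over many variants carry the results. Named were the 12 combinations of stop codon and base 4, the 5 highest and 5 lowest variants with a count of 100 or more, uncalled variants, those with CTA, extreme codons and the widest gaps between reporters. The variants, lists and tests were chosen with earlier results of these data known.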

Additional observations from a re-analysis of the deposited data

Results flagged for a closer look

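The step between penultimate-stop variants and stops further downstream differed between the reporters by a test of the difference itself. EJC-independent minus EJC-enhanced, it was 0.55 against the designed place, from 0.41 in the EJC-independent and -0.14 in the EJC-enhanced reporter (adjusted p 1.11e-15, normal test over variants). Against a stop at the last codon it was 0.58, from 0.42 in the EJC-independent and -0.17 in the EJC-enhanced reporter (adjusted p 0.000129). Both held their direction and their call in each setting run. The level over TGG controls with the same bases 4-10 did not pass such a test, at 0.02 (adjusted p 0.726, normal test over variants). In reporters normalized apart, the downstream stops averaged 1.72 and 2.29 at the designed place and 1.76 and 2.23 at the last codon (EJC-independent, then EJC-enhanced). The errors run over sequences in the same libraries, and the spread between cultures cannot be seen in these tables. All penultimate-stop variants also share the same fixed preceding codon, so these p-values do not measure the uncertainty of a place effect.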

How the results depend on the processing

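Of 266 values recomputed under other settings, 226 kept their direction and their side of the threshold, among them the excess over TGG controls and the EJC-independent step in place. For the EJC-enhanced reporter, the step against the designed place was -0.087 with a count of 50 or more. The step against the last codon passed at -0.18 with inverse variance weights and at -0.18 without variants that have no adjusted p, and was -0.083 with any base 4. TGA against TAG in the EJC-independent reporter, relative to the designed place, passed at -0.22 with 200 or more and at -0.16 with weights. The other 35 changed sign, none of them called before or after, and the cause was not tested. Of these, 3 are medians over variants, which have no test, at 0.024 for TGA minus TAG and -0.023 for base 4 T (EJC-independent) and -0.030 for TGA minus TAA (EJC-enhanced). With a count of 50 or more, base 4 A stood at -0.13 (EJC-independent) and 0.086 (EJC-enhanced), TGA minus TAG at 0.022 (EJC-enhanced), and between reporters base 4 C at 0.14, base 4 G at -0.013 and the excess over TGG controls at -0.026. With 200 or more, the EJC-independent reporter gave 0.068 against variants with both stops, -0.0049 for TGA minus TAA and -0.065 for base 4 G. The EJC-enhanced reporter gave -0.21 for TGA minus TAA and 0.12 for TAA minus TAG, or -0.21 and 0.088 relative to the designed place, and the excess over TGG controls differed by -0.024 between reporters. With inverse variance weights, TGA minus TAG was 0.013 (EJC-independent), and for the EJC-enhanced reporter TGA minus TAA was -0.035, or -0.033 relative to the designed place, TAA minus TAG 0.014 and base 4 A 0.017. Between reporters, weights gave 0.057 for base 4 C, -0.048 for base 4 G and -0.021 for the excess over TGG controls. After subtraction of the TGG controls with the same bases 4-10, base 4 G was -0.017 (EJC-independent), base 4 C -0.0070 (EJC-enhanced), and between reporters base 4 A was 0.026 and base 4 G -0.079. Without variants that hold an ATG, base 4 A was -0.047 and base 4 G -0.027 (EJC-independent). Without variants that have no adjusted p, TGA minus TAA was -0.0075 (EJC-enhanced), or -0.0033 relative to the designed place, base 4 C -0.0075, and base 4 G between reporters -0.021. Chosen after seeing the data were the settings without variants that have no adjusted p and with any base 4 against the last codon, and the stop codon differences relative to the designed place. Where a level had under 10 variants, no value was computed: the dependence of base 4 on the stop codon with 50 or more (EJC-independent) and 200 or more (both), base effects with 200 or more (EJC-enhanced), and stop and base effects between reporters with 200 or more. The step against the designed place over the 12 combinations was not computed with 200 or more, since a combination of stop codon and base 4 had under 2 variants. No paired analysis was possible because the tables hold no value per library, and for the same reason no replicate was left out and no other size factors were tried. Low counts limit single variants, above all in the EJC-enhanced reporter.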

Other observations

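These values were chosen after they were seen and are given without a test. An A at base 6 makes an ATG with the TG of the tryptophan codon, out of frame with the stop, and other ATG triplets arise where TAA or TGA is followed by TG or within bases 4-6. Penultimate-stop variants with an ATG averaged 1.91 ± 0.75 (SD, 65 variants) in the EJC-independent reporter, against 2.18 ± 0.78 in those without one (245 variants). In the EJC-enhanced reporter they averaged 2.16 ± 1.02 (104 variants), against 2.14 ± 0.91 (350 variants). By the number of G or C among bases 4, 5, 6 and 10, the means of the EJC-independent reporter were 2.10 with none, 2.18 with 1, 2.13 with 2, 2.11 with 3 and 2.03 with 4. Those of the EJC-enhanced reporter were 1.95, 2.04, 2.22, 2.21 and 1.97 in the same order.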
